A study of Homo sapiens with 6 samples.

Results

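Adenylate kinases, creatine kinases and nucleoside diphosphate kinases pass phosphate groups between nucleotides, or between phosphocreatine and ADP. The 9 genes described here are AK1, AK3, AK4, AK5, CKB, CKMT1B, NME1, NME2 and NME4, chosen by name for that function, and all 9 were found among the 19977 gene symbols measured. The mRNA of U2OS, a cell line from a human bone tumour (osteosarcoma), was sequenced 48 hours after siRNA transfection, with 3 libraries in each of 2 groups. The siNUDT5 group received an siRNA against NUDT5 and the siCtrl group a non-targeting siRNA. Both groups were untreated otherwise and grew in the same serum-containing medium. All libraries came from this 1 line, and the labels name neither separate cultures nor the number of siRNA sequences used, and the spread behind every p-value is that between libraries, possibly only technical. The comparison asks how lowering NUDT5 changes expression in these cells.

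Adenylate kinases interconvert ATP, ADP and AMP, and their isoenzymes sit in different compartments: AK1 and AK5 in the cytosol, AK3 and AK4 in the mitochondrial matrix. Creatine kinases move phosphate between ATP and creatine, CKB in the cytosol and CKMT1B, from one of a pair of nearly identical genes, in mitochondria. Nucleoside diphosphate kinases use ATP to make the other nucleoside triphosphates, NME1 and NME2 mainly in the cytosol and NME4 in mitochondria. NUDT5 is a NUDIX hydrolase of ADP-ribose that has also been described to form ATP from ADP-ribose and pyrophosphate in the nucleus, a source of ATP separate from these kinases.

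The targeted gene was low in every siNUDT5 library. NUDT5 stood at 3.04, 2.74 and 2.67 TPM in siNUDT5 1 to 3, against 46.2, 49.0 and 52.0 TPM in siCtrl 1 to 3, so that 5.74% of the siCtrl mean remained (log2 change -3.71, standard error 0.0982, limma adjusted p = 1.32e-06; exact two-sided permutation p of its TPM 0.1, the smallest that 3 against 3 libraries allow). TPM is a transcript level scaled for transcript length and library total, so levels of different genes can be compared. Among 6 mesenchymal markers 5 had a mean of at least 1 TPM, and their summed level was 5017 to 5146 TPM in siNUDT5 and 4345 to 4617 TPM in siCtrl. The summed neuronal markers (5 of 5 at 1 TPM or more, at 24.1 to 26.8 TPM in siNUDT5 and 20.5 to 28.0 TPM in siCtrl) and skeletal muscle markers (1 of 5, TNNT1, with MYH7 at 0, summing to 98.6 to 111 TPM in siNUDT5 and 90.9 to 124 TPM in siCtrl) overlapped between the groups. Epithelial markers (3 of 4) summed to 9.57 to 9.90 TPM in siNUDT5 and 11.8 to 15.9 TPM in siCtrl, and for the mesenchymal and epithelial lists the siNUDT5 and siCtrl sums did not overlap. Haematopoietic markers (0 of 3, with CD3E at 0) summed to 0.0331 to 0.497 TPM in siNUDT5 and 0.0978 to 0.240 TPM in siCtrl. The part of these markers in the results was not tested, and in bulk RNA fewer cells of a type and less RNA per cell cannot be told apart. One library stood apart: siCtrl 2 differed from siCtrl 1 and siCtrl 3 by a median of 0.296 and 0.227 per gene on the log2(TPM + 1) scale, where the other pairs within a group differed by 0.0967 to 0.134, and it had the lowest depth.

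No gene of the 9 passed the test between siNUDT5 and siCtrl. Of the 7 that could be tested, NME4 and AK1 came nearest, both higher in each siNUDT5 library than in each siCtrl library. AK5 also had groups that lay apart, whereas the values of NME1, AK3, AK4 and CKB overlapped between the groups. The test was limma on log2(TPM + 1), two-sided, over 12236 genes whose mean reached 1 TPM, with a Benjamini-Hochberg adjusted p of 0.05 as the threshold. With the same rule 16.1% of all tested genes passed, 10.9% higher and 5.20% lower in siNUDT5, against 0 of the 7 kinase genes. Median-ratio scaling of the libraries gave 1040 higher and 895 lower genes in place of 1334 and 636, and quantile normalization 1018 and 965. At an unadjusted p of 0.05 the count was 2 of 7, NME4 and AK1, where 31.0% of all tested genes were under that value. The values of the groups did not overlap in 3 of the 7, all 3 higher in siNUDT5, where the share over all tested genes was 37.3% in either direction and 24.3% higher. The median log2 change of the 7 was 0.21, and that of all tested genes was 0.05.

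**Figure D1:**
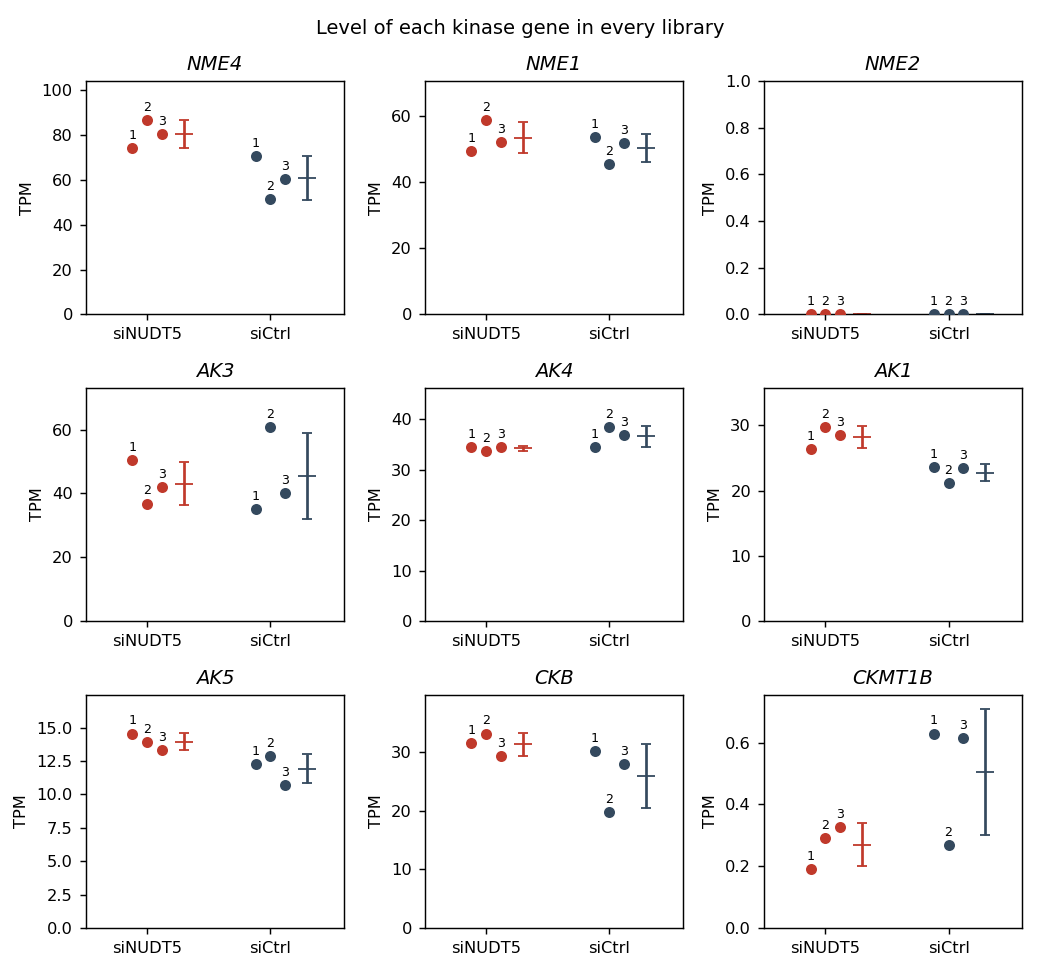
TPM (vertical axes, from 0, scaled for each gene) of the 9 kinase genes in siNUDT5 (left, red) and siCtrl (right, dark blue), with a point for each library, its replicate number above it, and the mean with SD of 3 libraries beside the points. The siNUDT5 points of NME4, AK1 and AK5 lie above all siCtrl points, NME2 is at 0 throughout, and siCtrl 2 is the highest point of AK3 and the lowest of CKB.

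The nucleoside diphosphate kinase NME4 had the highest mean listed TPM of the 9 genes in both groups. Its level was 74.3, 86.8 and 80.7 TPM in siNUDT5 1 to 3, against 70.7, 51.4 and 60.5 TPM in siCtrl 1 to 3. The groups lay apart, though siNUDT5 1 and siCtrl 1 were only a few TPM from each other. Means were 80.6 ± 6.25 TPM in siNUDT5 and 60.9 ± 9.66 TPM in siCtrl (SD, n = 3 each). Its log2 change, siNUDT5 minus siCtrl, was 0.41 (standard error 0.124, 95% interval 0.13 to 0.69), with a limma adjusted p of 0.0580. NME4 passed in 4 of 17 alternatives. Without siCtrl 1 the log2 change was 0.52 with a limma adjusted p of 0.0171, and without siCtrl 2 it was 0.29 with 0.0250, past the threshold in both cases. The limma adjusted p was 0.153 without siCtrl 3, and 0.103, 0.200 and 0.173 without siNUDT5 1, 2 and 3. With median-ratio scaling it was 0.126, with quantile normalization 0.137 and with the replicate block 0.161. Leaving out siCtrl 1 brought 17.0% of all tested genes past the threshold and leaving out siCtrl 2 brought 31.1%. NME4 encodes the nucleoside diphosphate kinase of the mitochondrial inner membrane, which also binds cardiolipin.

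NME1, which encodes the A subunit of the cytosolic enzyme and is known as a metastasis suppressor gene, was nearly level between the groups. Its level was 49.4, 58.7 and 52.0 TPM in siNUDT5 1 to 3, against 53.6, 45.5 and 51.8 TPM in siCtrl 1 to 3. The range of siNUDT5 and that of siCtrl overlapped over most of their width. The log2 change was 0.09 (standard error 0.103, 95% interval -0.15 to 0.32, limma adjusted p = 0.624). An increase by more than 1.5-fold or a decrease of that size lies outside this interval.

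NME2, which encodes the B subunit of the same hexameric enzyme, was listed at exactly 0 in all 6 libraries. It lies beside NME1, and the annotation also holds a read-through gene, NME1-NME2, that joins both. Of the 50-base windows of the NME2 transcript with the longest coding sequence in GENCODE 29, 68.3% also occur in transcripts of NME1-NME2, as do 60.7% of those of NME1. NME1-NME2 itself stood at 0.562, 1.46 and 1.09 TPM in siNUDT5 1 to 3, against 1.0, 1.46 and 0.513 TPM in siCtrl 1 to 3, with a log2 change of 0.04 and a limma adjusted p of 0.938. The sources used here do not say how reads that fall in more than one gene were counted, so the listed 0 cannot be read as absence of NME2 mRNA. Part of the NME1 value, and with it the interval of NME1, can depend on that counting too. Summing NME1, NME2 and NME1-NME2 into 1 feature gave a log2 change of 0.08 with a limma adjusted p of 0.628.

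NME1 and NME2 themselves differ at enough bases to be told apart. Their coding sequences are 80.9% identical over 456 aligned bases, 369 of which are the same. The stretch of 90 bases where they differ most is shown 5′ to 3′ for both, from chromosome 17, plus strand, with the 25 differing bases in capitals. It spans coding bases 100 to 189 of NME2 and 175 to 264 of NME1, counted from the start codon of the longest coding sequence of each in GENCODE 29 (GRCh38).
NME2: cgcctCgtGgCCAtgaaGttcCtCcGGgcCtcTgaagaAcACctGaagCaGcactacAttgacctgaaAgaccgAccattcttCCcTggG
NME1: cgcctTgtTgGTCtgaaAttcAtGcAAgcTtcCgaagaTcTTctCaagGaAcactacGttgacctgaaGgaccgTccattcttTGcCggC
Reads over this stretch carry bases that tell NME1 and NME2 apart.

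The cytosolic adenylate kinases AK1 and AK5 were both higher in every siNUDT5 library. AK1, the main cytosolic isoenzyme of muscle, brain and red cells, stood at 26.3, 29.8 and 28.5 TPM in siNUDT5 1 to 3, against 23.5, 21.2 and 23.4 TPM in siCtrl 1 to 3. Its groups lay apart, with the smallest gap between siNUDT5 1 and siCtrl 1. Means were 28.2 ± 1.74 TPM in siNUDT5 and 22.7 ± 1.30 TPM in siCtrl (SD, n = 3 each). The log2 change was 0.30 (standard error 0.0938, 95% interval 0.09 to 0.51, limma adjusted p = 0.0635). It passed without siCtrl 2, with a log2 change of 0.25 and a limma adjusted p of 0.0408, and in no other alternative. In that fit 31.1% of all tested genes passed. Of the 50-base windows of the AK1 transcript, 78.3% also occur in AL157935.2, an overlapping GENCODE 29 gene, so part of the AK1 value can depend on how shared reads were counted.

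AK5, an isoenzyme known mainly from brain, stood at 14.6, 13.9 and 13.3 TPM in siNUDT5 1 to 3, against 12.3, 12.8 and 10.7 TPM in siCtrl 1 to 3. Again the groups did not overlap, by less than 1 TPM. The log2 change was 0.21 (standard error 0.104, 95% interval -0.03 to 0.45, limma adjusted p = 0.208). The summed TPM of AK1 and AK5 were 40.9, 43.7 and 41.8 in siNUDT5 1 to 3, against 35.8, 34.1 and 34.1 in siCtrl 1 to 3. No window of AK5 occurs in another gene's transcript.

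The mitochondrial adenylate kinases AK3 and AK4 did not differ beyond the spread between libraries. AK3, which transfers phosphate from GTP to AMP in the matrix, stood at 50.4, 36.8 and 42.0 TPM in siNUDT5 1 to 3, against 35.2, 60.9 and 40.2 TPM in siCtrl 1 to 3. It had the widest control spread of the 7 tested genes, with siCtrl 2 far above the other control libraries. The log2 change was -0.05 (standard error 0.199, 95% interval -0.50 to 0.41, limma adjusted p = 0.904), and without siCtrl 2 it was 0.18 with a limma adjusted p of 0.262.

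AK4, a matrix paralogue of AK3 that is known as a hypoxia-responsive gene, was the most even of the 7. Its level was 34.4, 33.6 and 34.5 TPM in siNUDT5 1 to 3, against 34.4, 38.5 and 36.8 TPM in siCtrl 1 to 3. The siNUDT5 values varied by 1.46% (coefficient of variation), and siCtrl 1 lay among them. The log2 change was -0.09 (standard error 0.0847, 95% interval -0.29 to 0.10, limma adjusted p = 0.503). AK4P1, a pseudogene of AK4, shares 7.53% of its windows.

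CKB, the brain-type cytosolic creatine kinase, stood at 31.6, 33.1 and 29.2 TPM in siNUDT5 1 to 3, against 30.1, 19.8 and 28.0 TPM in siCtrl 1 to 3. The groups overlapped, since siCtrl 1 was above siNUDT5 3, and siCtrl 2 was the one library far below the rest. The log2 change was 0.28 (standard error 0.151, 95% interval -0.06 to 0.63, limma adjusted p = 0.245). Without siCtrl 2 the log2 change was 0.10 with a limma adjusted p of 0.387.

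CKMT1B, the ubiquitous mitochondrial creatine kinase, was near the limit of detection and stayed under the 1 TPM mean needed for the test. Its level was 0.192, 0.291 and 0.326 TPM in siNUDT5 1 to 3, against 0.629, 0.268 and 0.613 TPM in siCtrl 1 to 3. The siCtrl 2 value lay within the siNUDT5 range. Scaled by the relative depth of the libraries, these TPM values stood in the ratio of the whole numbers 3, 6 and 6 in siNUDT5 and 11, 3 and 12 in siCtrl, each met to within 0.000325. If 1 unit is 1 read, CKMT1B rested on 15 reads in siNUDT5 and 26 in siCtrl. Relative depth, taken from steps in low TPM values with siCtrl 1 as 100%, was 89.4%, 118% and 105% in siNUDT5 1 to 3 and 64.1% and 112% in siCtrl 2 and 3.

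CKMT1A, the other copy, was as low. Its level was 0.311, 0.471 and 0.330 TPM in siNUDT5 1 to 3, against 0.209, 0.651 and 0.621 TPM in siCtrl 1 to 3, or 17 and 19 such units in siNUDT5 and siCtrl. At so few units no difference between the groups can be read from either copy. Their coding sequences are 99.8% identical, with 2 differing bases in 1251. Both differing bases, in capitals, fall in coding bases 997 to 1086 (GENCODE 29, GRCh38, chromosome 15, plus strand, 5′ to 3′).
CKMT1B: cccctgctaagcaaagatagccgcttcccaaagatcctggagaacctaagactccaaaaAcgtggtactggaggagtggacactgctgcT
CKMT1A: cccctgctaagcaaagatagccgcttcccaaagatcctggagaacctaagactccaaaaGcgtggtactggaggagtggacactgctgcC
Of the 50-base windows of the CKMT1B transcript 89.8% also occur in CKMT1A, so the split of the 2 values is uncertain. The summed feature of CKMT1A and CKMT1B had a mean under 1 TPM and was not tested.

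The 95% intervals bound what these libraries could show. In all 7 tested genes the interval of the log2 change lay within a 2-fold change in either direction, and in 5 of 7 within 1.5-fold. NME4 and CKB were the exceptions, with upper bounds of 0.69 and 0.63.

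**Figure D2:**
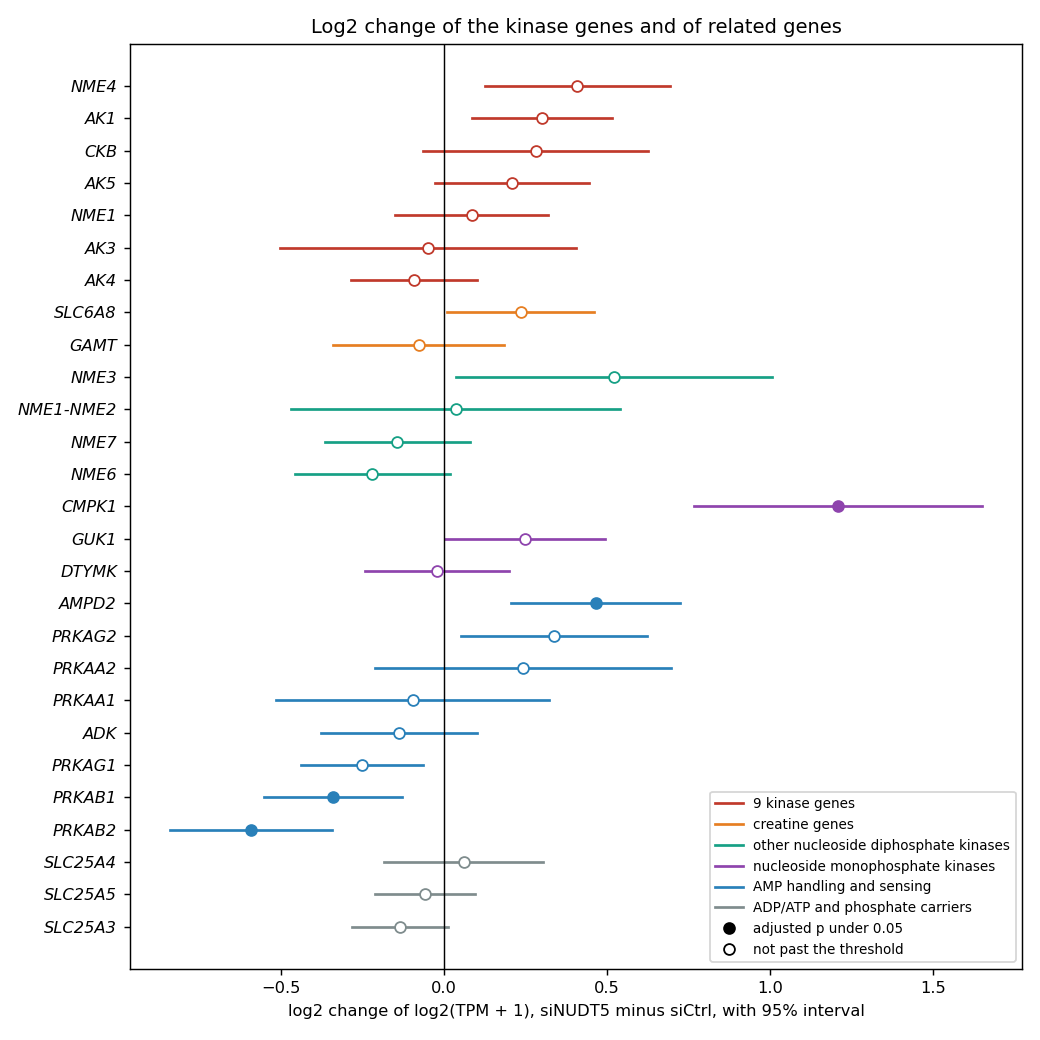
Log2 change (siNUDT5 minus siCtrl, on the log2(TPM + 1) scale) with its 95% interval for the 7 tested kinase genes at the top and the 20 tested genes of 5 related lists under them, coloured by list. Filled points passed an adjusted p of 0.05: CMPK1, AMPD2, PRKAB1 and PRKAB2.

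By mean listed TPM the 9 genes had the same order in siNUDT5 and siCtrl: NME4, NME1, AK3, AK4, CKB, AK1, AK5, CKMT1B and NME2. The listed value of NME2 cannot be read as absence of its mRNA, so its last place says nothing about its level. The places of NME1 and AK1 can also depend on how shared reads were counted. In siNUDT5 the library ranges of neighbours overlapped for NME1 and AK3 and for CKB and AK1. In siCtrl they overlapped for NME4 and NME1, NME1 and AK3, AK3 and AK4, and CKB and AK1. Beyond neighbours, AK3 at 60.9 TPM stood above NME4 at 51.4 TPM in siCtrl 2. By mean TPM over the 6 libraries NME4 stood above 87.2% of all listed symbols and AK5 above 60.7%.

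Within the summed TPM of AK1, AK3, AK4 and AK5, AK3 held the largest mean share, 35.9% in siNUDT5 and 38.4% in siCtrl. AK1 held 21.0% to 26.1% in siNUDT5 and 15.9% to 22.3% in siCtrl, so that the library values overlapped. CKB held 97.1% to 97.8% of creatine kinase TPM in siNUDT5 and 94.9% to 96.1% in siCtrl, and the muscle isoenzyme CKM had at most 0.289 TPM in any library. NME7, a centrosomal member of the nucleoside diphosphate kinase family, was the largest of its family with 48.7% in siNUDT5 and 54.6% in siCtrl, beside NME4 with 21.3% in siNUDT5 and 16.3% in siCtrl. These last shares leave out whatever NME2 mRNA the table does not show.

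No family total passed a test that could not reach the threshold at this size. All creatine kinases summed to 32.1 ± 2.13 TPM in siNUDT5 and 27.2 ± 5.54 TPM in siCtrl, and all nucleoside diphosphate kinases to 379 ± 14.2 TPM in siNUDT5 and 375 ± 6.35 TPM in siCtrl (SD, n = 3 each). The nucleoside diphosphate kinase total counts NME2 at its listed 0, so it leaves out whatever NME2 mRNA was present. Exact two-sided permutation tests gave p = 0.2 and 0.8, or 0.4 and 0.8 adjusted over the 2 totals, where the smallest p that 3 against 3 libraries allow is 0.1. Under median-ratio scaling the last difference, siNUDT5 minus siCtrl, turned from positive to -10.2 TPM, and it was -4.12 TPM without siNUDT5 2 and 0.412 TPM without siCtrl 1. The creatine kinase difference was 4.95 TPM with all libraries and 1.81 TPM without siCtrl 2. AK1, AK3, AK4 and AK5 together stood at 119 ± 5.87 TPM in siNUDT5 and 117 ± 14.8 TPM in siCtrl (SD, n = 3 each), a sum that was not tested. Its difference, siNUDT5 minus siCtrl, was 2.73 TPM and kept no direction, at -1.57 TPM with median-ratio scaling, -2.87 TPM without siCtrl 1 and 11.1 TPM without siCtrl 2. In the 3 mitochondrial creatine kinases together the total was 0.610, 0.843 and 0.656 TPM in siNUDT5 1 to 3, against 0.933, 0.919 and 1.24 TPM in siCtrl 1 to 3, sums of values near the limit of detection.

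**Figure D3:**
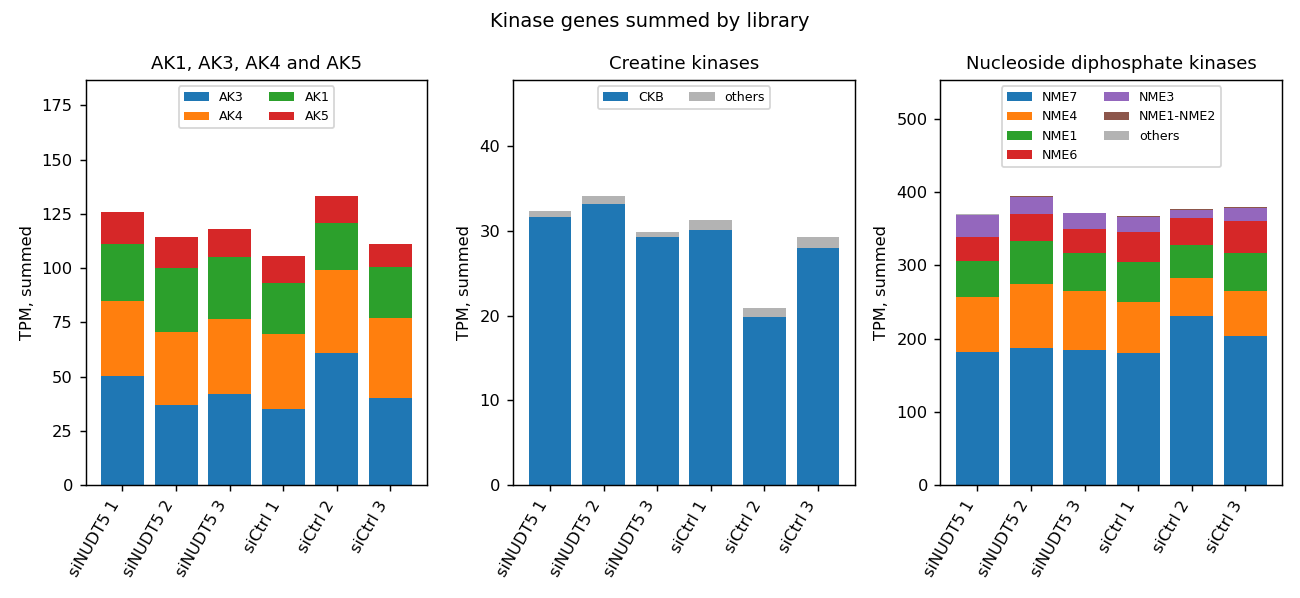
Summed TPM (vertical axis, from 0) of AK1, AK3, AK4 and AK5 and of the creatine and nucleoside diphosphate kinase families in each library, siNUDT5 libraries left of siCtrl libraries, with a colour for each gene of at least 1 TPM on average and grey for the others. CKB and NME7 are the largest part of the listed TPM of their families in all 6 libraries, and the totals of the groups overlap in each panel.

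The other nucleoside diphosphate kinases and creatine genes tested did not pass either. NME3, a nucleoside diphosphate kinase of the mitochondrial outer membrane, had the largest log2 change of them, 0.52, with a standard error of 0.212 and a limma adjusted p of 0.134, and passed without siCtrl 1 (log2 change 0.69, limma adjusted p = 0.0462) and with both the GC and length trend removed and the replicate block (0.37, limma adjusted p = 0.0168). Without siCtrl 2 the log2 change of NME3 was 0.28 (limma adjusted p = 0.101). Its limma adjusted p was 0.191 with median-ratio scaling, and 0.348, 0.227 and 0.202 without siNUDT5 1, 2 and 3. NME3 passed in 2 of 17 alternatives. Of all tested genes 17.0% passed without siCtrl 1. With both the trend removed and the block, 1936 genes passed higher and 1839 lower. NME6, which lies in mitochondria, had a log2 change of -0.22 and a limma adjusted p of 0.190. It passed without siCtrl 2 (-0.29, limma adjusted p = 0.0275), in a fit where 31.1% of all tested genes passed. NME7 had a log2 change of -0.14 (limma adjusted p = 0.358), and -0.05 without siCtrl 2 (limma adjusted p = 0.605). Among creatine genes the transporter SLC6A8 had a log2 change of 0.24 (limma adjusted p = 0.144) and the synthesis enzyme GAMT -0.08 (limma adjusted p = 0.696), while the first enzyme of creatine synthesis, GATM, had at most 0.328 TPM in any library.

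AK8, which was named after its values were seen, was near the limit of detection. Its level was 0.252, 0.509 and 0.499 TPM in siNUDT5 1 to 3, against 0.150, 0 and 0.134 TPM in siCtrl 1 to 3. In the whole-number units used for CKMT1B it held 18 in siNUDT5 and 4 in siCtrl. AK7 and AK9 were low too, at most 0.107 TPM and 1.52 TPM in any library.

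Some genes of the pathway around these kinases passed, at about the share found over all tested genes. Of 20 tested genes in 5 lists 2 rose and 2 fell, with a median log2 change of -0.04. Of all tested genes 10.9% passed higher and 5.20% lower, 16.1% in either direction. The count in the lists is near that share and is no result about the pathway. CMPK1, the UMP and CMP kinase that feeds nucleoside diphosphate kinases with their substrates, rose to 181, 132 and 154 TPM in siNUDT5 1 to 3, against 54.3, 90.8 and 58.9 TPM in siCtrl 1 to 3. Its groups lay well apart, and its log2 change of 1.21 (standard error 0.193, limma adjusted p = 0.00553) passed under all 17 alternatives. The other monophosphate kinases did not pass: GUK1, the guanylate kinase, had a log2 change of 0.25 (limma adjusted p = 0.158), DTYMK, the thymidylate kinase, had -0.02 (limma adjusted p = 0.913; -0.13 and past the threshold at 0.0458 with the GC and length trend removed), and CMPK2, the mitochondrial one, was under 1 TPM.

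AMP is the product that adenylate kinases pass on when ATP is used, and 3 of 8 tested genes of AMP handling and sensing passed, 1 higher and 2 lower, where 16.1% of all tested genes passed in either direction. AMPD2, an AMP deaminase, rose to 68.2, 72.3 and 64.5 TPM in siNUDT5 1 to 3, against 54.1, 41.8 and 52.5 TPM in siCtrl 1 to 3 (log2 change 0.47, standard error 0.113, limma adjusted p = 0.0275). PRKAB2 and PRKAB1, the scaffold subunits of the AMP-activated protein kinase, both fell. PRKAB2 stood at 41.0, 36.2 and 35.6 TPM in siNUDT5 1 to 3, against 51.2, 64.1 and 56.5 TPM in siCtrl 1 to 3 (log2 change -0.59, standard error 0.108, limma adjusted p = 0.00924). PRKAB1 stood at 24.5, 27.1 and 23.1 TPM in siNUDT5 1 to 3, against 31.0, 31.7 and 32.4 TPM in siCtrl 1 to 3 (log2 change -0.34, standard error 0.0928, limma adjusted p = 0.0405).

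ADK, the adenosine kinase that forms AMP, had a log2 change of -0.14 (limma adjusted p = 0.418). The other AMP-activated protein kinase subunits did not pass. The catalytic subunit PRKAA1 had a log2 change of -0.10 (limma adjusted p = 0.764), and the nucleotide-binding subunits PRKAG1 and PRKAG2 had -0.25 (limma adjusted p = 0.0710) and 0.34 (limma adjusted p = 0.104). Leaving out 1 library ended some of these calls. AMPD2 had limma adjusted p = 0.0682 without siCtrl 3 and 0.0954, 0.115 and 0.0811 without siNUDT5 1, 2 and 3. PRKAB1 had limma adjusted p = 0.0553 and 0.153 without siCtrl 1 and 3, and 0.140, 0.0756 and 0.170 without siNUDT5 1, 2 and 3. PRKAB2 had limma adjusted p = 0.0567 without siNUDT5 3. Without siCtrl 2 PRKAG1 and PRKAG2 passed, with limma adjusted p = 0.0398 and 0.0182, in a fit where 31.1% of all tested genes passed. PRKAG1 also passed with median-ratio scaling (limma adjusted p = 0.0282), quantile normalization (0.0263) and without mitochondrially encoded genes (0.0475). With the GC and length trend removed PRKAG1 and PRKAG2 passed too, with limma adjusted p = 0.00289 and 0.0131, or 0.0152 and 0.0407 with the replicate block as well. Removing the trend, without the block, brought 40.3% of all tested genes past the threshold.

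No gene of the ADP/ATP and phosphate carrier list passed. The phosphate carrier SLC25A3 had a log2 change of -0.14 (limma adjusted p = 0.190), and the ADP/ATP carriers SLC25A5 and SLC25A4 had -0.06 (limma adjusted p = 0.604) and 0.06 (limma adjusted p = 0.747). SLC25A6 and SLC25A31 were listed at 0 in all 6 libraries. Sequence that they share with other genes was not examined, and how shared reads were counted is not given. A listed 0 therefore cannot be read as absence of their mRNA. SLC25A5 stood at 891, 934 and 906 TPM in siNUDT5 1 to 3, against 955, 898 and 994 TPM in siCtrl 1 to 3. It had the highest listed TPM of all the lists.

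**Figure D4:**
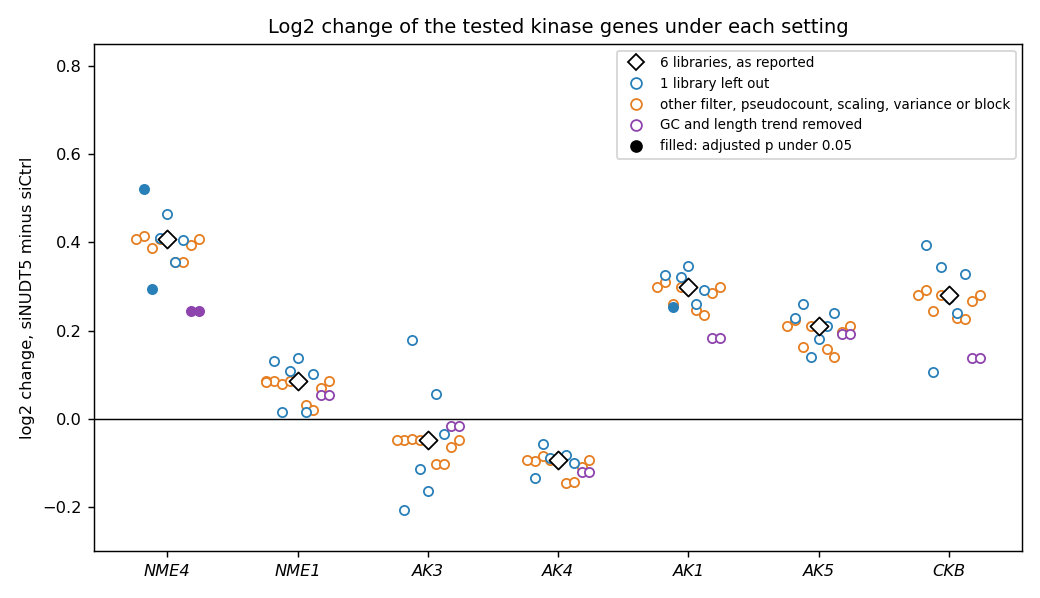
Log2 change (siNUDT5 minus siCtrl, vertical axis) of the 7 tested kinase genes with all 6 libraries (diamonds) and under each alternative (circles, coloured by kind), filled where the adjusted p was under 0.05. AK3 is the one gene with values on both sides of 0, and filled points occur for NME4 and AK1.

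The deviation of siCtrl 2 varied with base composition, and its part in the results was not tested. Across 11635 tested genes with a GENCODE 29 match, the difference between siCtrl 2 and the mean of siCtrl 1 and 3 on the log2(TPM + 1) scale had a Spearman correlation of -0.82 with the GC content of the transcript, a description across genes of 1 library. AK3, with 41.2% GC, was 0.68 higher in siCtrl 2. CKB, with 65.1% GC, had a difference of -0.53 there, and NME4, with 66.2% GC, one of -0.34. AK4, AK5, NME1 and AK1 had smaller differences, from -0.21 to 0.15. The same correlation, each library against the others of its group, was -0.56, 0.63 and -0.13 in siNUDT5 1 to 3, and 0.79 and 0.55 in siCtrl 1 and 3. The median log2 change between the groups was -0.03 in the fifth of genes with the lowest GC content, which holds AK3, and 0.15 in the fifth with the highest, which holds AK1, CKB and NME4.

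With the GC and length trend of each library removed, an alternative chosen after seeing the data, the log2 changes of AK1, CKB and NME4 were smaller. Any part of the siNUDT5 difference that follows GC content is removed with the trend. NME4 then had a log2 change of 0.25 with a limma adjusted p of 0.00384, in a fit where 40.3% of all tested genes passed. AK1 had 0.18 (limma adjusted p = 0.0591), CKB 0.14 (limma adjusted p = 0.125) and AK5 0.19 (limma adjusted p = 0.0673). AK3 had -0.02 (limma adjusted p = 0.904) and AK4 -0.12 (limma adjusted p = 0.193). CMPK1 kept a log2 change of 1.25 with a limma adjusted p of 3.31e-06.

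**Figure D5:**
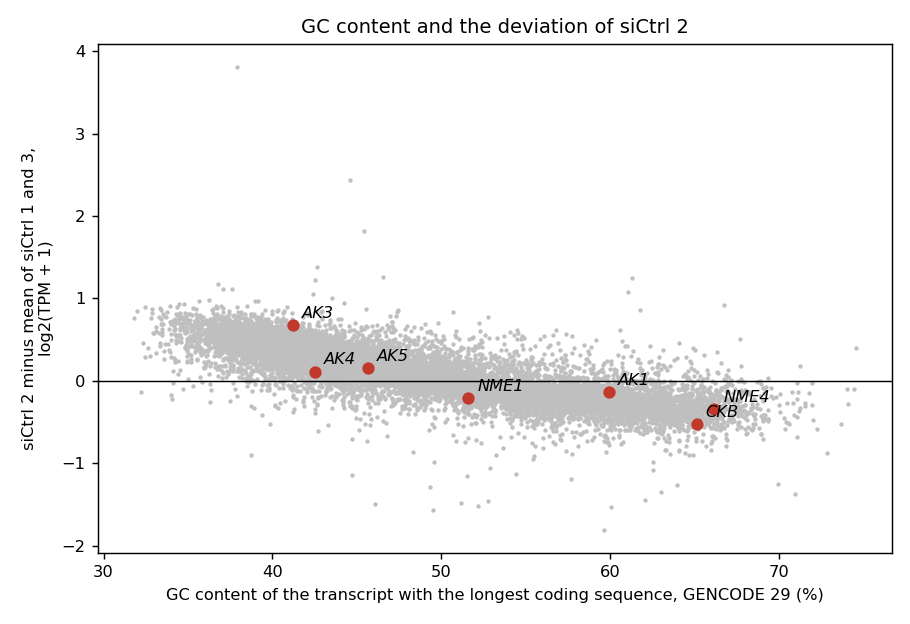
Difference of siCtrl 2 from the mean of siCtrl 1 and siCtrl 3 (vertical axis, log2(TPM + 1)) against GC content of the transcript with the longest coding sequence (horizontal axis, %), with a grey point for each of 11635 genes and the 7 tested kinase genes in red. Points run downward from left to right, with AK3 at 0.68 on the left and CKB at -0.53 on the right.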

How the data were processed

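The authors deposited 1 table of TPM, with a row for each gene symbol and a column for each of 3 siNUDT5 and 3 siCtrl libraries, and every column has the same total. Libraries were strand-specific, per the labels' protocols. Per the submitters' processing notes, the build was hg19 and the tools included DESeq2 1.22.1 and STAR 2.7.3a, with no role given. Not given in the sources used here: how TPM were computed, and how shared reads or strand were handled. Groups and replicate numbers came from the titles.

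Because TPM are not counts, limma 3.58.1 in R 4.3.3 was fitted on log2(TPM + 1), as siNUDT5 minus siCtrl, using lmFit and trended eBayes, over 12236 genes whose mean reached 1 TPM. Log2 changes on this scale understate those of low genes. Members, lists and tests were chosen with earlier results of these data known. Named are the 9 genes, NUDT5, list genes past the threshold and up to 4 more a list by mean TPM. No gene of the 9 passed, so no genes of like pattern were sought. The fit was tested on simulated data. Of 43 other list symbols 39 were found, and AK6 was not analysed here. A few listed genes are not reported here. Permutation tests used scipy 1.17.1.

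Transcript length, GC content and 50-base windows came from GENCODE 29, on a build other than the authors', so no coordinates are given. Of the tested genes 95.1% matched by symbol. The GC and length trend was removed in each library by lowess with a span of 0.3, an alternative chosen after seeing the data. Relative depth is the commonest ratio of low TPM values to siCtrl 1. After scaling, 74.0% to 82.0% of these ratios came within 0.1% of one between integers from 1 to 5. Absolute depth is not known. Alternatives changed the pseudocount (0.1 or 5), the filter (none, or a 5 TPM mean), the scaling (median-ratio, quantile, or no mitochondrially encoded genes), the eBayes trend, the replicate block, the summing of copies, or left out each library in turn.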

Additional observations from a re-analysis of the deposited data

How the results depend on the processing

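NUDT5 kept its direction and its call under all 17 alternatives run. AK1, AK4, AK5, CKB, NME1 and NME4 kept their direction in all of theirs. AK3 turned to 0.18 without siCtrl 2 and 0.06 without siNUDT5 2. Leaving out each library in turn gave AK1 0.25 to 0.35, NME4 0.29 to 0.52, and AK3 -0.21 to 0.18. NME4 passed at 0.25 with the GC and length trend removed, with or without the replicate block. Leaving out a library let 0 to 2 of the 9 genes pass higher and none lower, and removing the trend let 1 pass. The same-numbered libraries did not deviate together from their group means (r from -0.54 to -0.04). Such deviations also follow GC content, so they cannot show whether equal numbers mark a shared day or batch. The labels do not say so either. Among all genes, 486 were higher and 253 lower with the replicate block, 2372 and 2316 with the trend removed, and 1839 lower with both. Quantile normalization left 965 lower and 1018 higher, and median-ratio scaling 1040 higher and 895 lower. Leaving out each library gave 520 to 2672 higher and 213 to 1132 lower, a move of over 1.5 times for each library but siCtrl 1, upward without siCtrl 2 and downward without siCtrl 3 or any siNUDT5 library. Of the related list genes, 1 was higher with median-ratio scaling, quantile normalization or the replicate block, and 4 with the trend removed and the block. In those lists 1 was lower without a filter or with the block, and 4 with the trend removed. Leaving out each library gave 1 to 4 higher and 0 to 4 lower. Leaving out each library gave DTYMK -0.10 to 0.027, positive without siCtrl 1, siCtrl 3 or siNUDT5 1. It gave NME1-NME2 -0.15 (without siCtrl 3) to 0.21, PRKAA1 -0.27 to 0.12 (without siCtrl 2), and GAMT 0.0047 without siCtrl 1. SLC25A4 turned to -0.019 with quantile normalization. CKMT1A and CKMT1B summed gave no value, being under the filter. AMPD2 missed the threshold with median-ratio scaling (limma adjusted p = 0.0562), quantile normalization (0.0740) and the replicate block (0.101), and PRKAB1 without a filter (0.0524) and with the block (0.195). Median-ratio scaling moved the difference in summed AK1 and AK5 to 6.0 TPM and that of all nucleoside diphosphate kinases to -10.2 TPM. The cause of these changes was not tested. The low depth of siCtrl 2 and TPM under 1 limit what can be said of CKMT1B, CKMT1A and AK8.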
